A study of Rattus norvegicus with 18 samples.

Results

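Rasl11b (Ras-like family 11 member B) encodes a small GTPase of the Ras family. All probe sets were taken whose only gene symbol in the array's annotation was Rasl11b, which gave 2 of the 8799 probe sets on the rat U34A GeneChip, an oligonucleotide array that reads a gene with sets of short probes. They are rc_AA800853_g_at, called here the brighter probe set, and rc_AA800853_at, the dimmer. Both were designed on the same expressed sequence tag, so they are not independent of each other. Whether either also reads another transcript was not tested. Whether they share probes is not known from the files. The gene (RefSeq gene number 305302) lies on chromosome 14.

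The tissue was the suprachiasmatic nucleus (SCN), the hypothalamic seat of the master circadian clock, from adult male Long-Evans rats that had lived under a light-dark cycle. The rats were transferred to constant darkness when lights would normally go off, and collection began at the following projected lights-on, which is circadian time (CT) 0. Each of the 8 time points analysed here, every 6 h from 0 to 42 h, was 1 pool of RNA from 5 rats, so CT 0, 6, 12 and 18 were each met on both days by pools of different animals. A first run of 10 arrays, with arrays a and b at 24 h and 36 h, and a technical repeat of 8 arrays read these pools. All groups share the strain, sex, housing and darkness, and there was no treated group. Per the labels, the time points differ in when the animals were taken and hence in time spent in darkness.

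Small GTPases of the Ras superfamily act as molecular switches, active when bound to GTP and inactive when bound to GDP. Exchange factors load them with GTP, GTPase-activating proteins make them hydrolyse it, and effectors such as the Raf kinases bind the loaded form. In the SCN, Ras and the MAP kinase cascade below it are known for carrying the light signal from glutamate receptors to transcription. Rasl11b and its closest relative Rasl11a form a small branch of the family that has been studied far less than the classical Ras proteins.

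Rasl11b was chosen by its own values on these arrays, the fitted rhythm and the difference between CT 6 and CT 18, so its time course is given as a description and without a p-value. Intensities are the authors' deposited values on a linear scale. A pool's value is the geometric mean of its runs, after arrays a and b were averaged.

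The brighter probe set was highest at CT 6, the middle of the projected day, on both days. At 6 h it read 1759.6 in the first run and 1216.9 in the repeat. At 30 h, the same phase a day later, the intensities were 1544.3 and 1507.3. These 4 arrays lay above all 5 arrays of CT 0 and all 4 of CT 18, and overlapped those of CT 12.

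At CT 12, the projected dusk, the brighter probe set stood at an intermediate level. The 12 h pool gave 1421.4 in the first run and 965.1 in the repeat. The 36 h pool gave 916.3 on array a, 1598.2 on array b and 992.6 in the repeat. The scatter within this phase was wide, since array b at 36 h exceeded 3 of the 4 arrays of CT 6.

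The lowest values came at CT 18, the middle of the projected night. At 18 h the probe set read 384.5 in the first run and 711.8 in the repeat. At 42 h it read 463.3 and 518.6. All 4 arrays lay below every array of the other phases.

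At CT 0, the projected dawn, the level was again intermediate. The 0 h pool gave 771.4 and 1041.9 in the first run and the repeat. The 24 h pool gave 755.9 on array a, 1198 on array b and 761.2 in the repeat. The lowest of these arrays, at 755.9, was close to the highest of CT 18, at 711.8.

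In pool means the order from high to low was 30 h (1526), 6 h (1463), 12 h (1171), 36 h (1096), 0 h (897), 24 h (851), 18 h (523) and 42 h (490). The order thus runs through CT 6, CT 12, CT 0 and CT 18, with the pools of each phase next to each other. The single arrays of neighbours in this order overlapped, so most neighbours cannot be separated. The exception was the step from 24 h down to 18 h, 0.70 on the log2 scale.

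**Figure D1:**
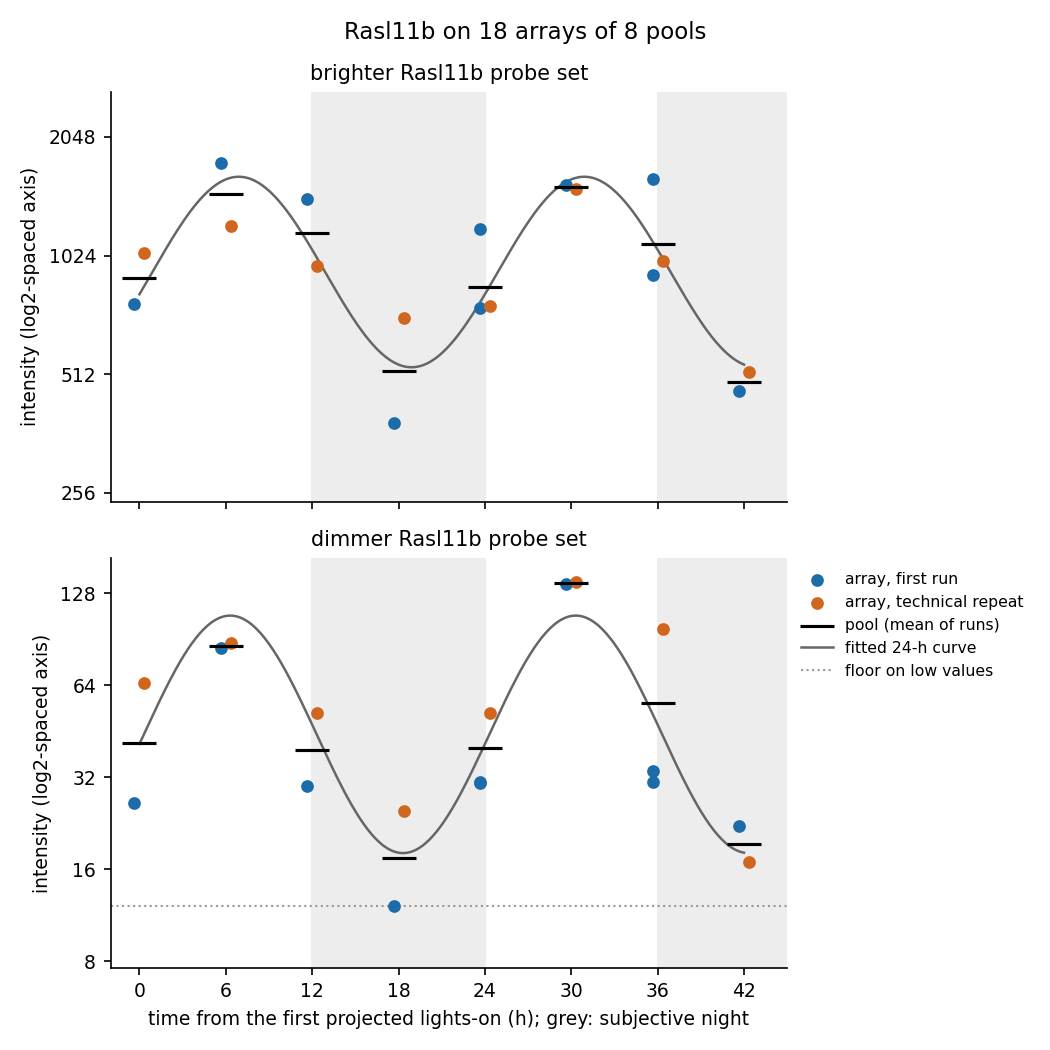
Intensity of the brighter and the dimmer Rasl11b probe set (log axis) against hours from the first projected lights-on, with each array of the first run (blue) and the technical repeat (orange) as a point, pool means as bars, the fitted 24 h curve as a line, the floor dotted and the projected night in grey. Both probe sets are highest at 6 h and 30 h, and the brighter one lies between 384.5 and 711.8 on the 4 arrays of 18 h and 42 h.

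The 8 log2 pool means were fitted with a 24 h wave, the sum of a cosine and a sine. For the brighter probe set the fitted peak lay at CT 6.90 and the amplitude, how far the fitted peak stands above the wave's mean, was 0.80 ± 0.09 (SE, n = 8 pools) on the log2 scale. The fitted difference between CT 6 and CT 18 was 1.56 ± 0.18 on the log2 scale, a 2.95-fold higher level by day. Among the 2820 genes tested, each by its brightest probe set, this difference was the third highest and the amplitude the fifth. Of those genes, 0.0355% (1 gene, Rasl11b itself) passed an adjusted p of 0.05 for this difference by limma with Benjamini-Hochberg adjustment, a fact that served to choose the gene and is no further evidence. For the rhythm test 0% passed, while 5.46% of genes and 6.36% of the 4370 tested probe sets had an unadjusted p under 0.05. In pooled tissue, fewer cells that express Rasl11b and less of its RNA per cell cannot be told apart.

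The dimmer probe set had the same highest and lowest phases, over a wider range on the log2 scale. Its mean of 44.1 was below the level filter of 121 (the median of all probe sets), so it was fitted only without that filter. At CT 6 it read 84.4 and 87.7 at 6 h, and 136.6 and 139.5 at 30 h, first run before repeat. At CT 18 it read 12.1 and 24.8 at 18 h, and 22.2 and 16.9 at 42 h. The value 12.1 equals the floor below which intensities were not resolved. The arrays of CT 6 and CT 18 did not overlap in this probe set either.

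Between these extremes the dimmer probe set read 26.3 and 64.8 at 0 h. At 24 h it read 30.5 and 30.9 on arrays a and b, and 51.7 in the repeat. At 12 h it read 29.8 and 51.7, and at 36 h 33.4, 30.9 and 97.5. CT 0 and CT 12 overlapped widely, and neither reached down to the 4 arrays of CT 18.

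The pool order of the dimmer probe set was 30 h (138), 6 h (86.0), 36 h (56.0), 0 h (41.3), 24 h (39.8), 12 h (39.3), 42 h (19.4) and 18 h (17.3). Here the arrays of neighbouring pools were separate at the step from 30 h to 6 h, 0.68 on the log2 scale, and at that from 12 h to 42 h, 1.02. The fitted peak lay at CT 6.31, the amplitude was 1.29 ± 0.13 and the fitted difference between CT 6 and CT 18 was 2.57 ± 0.26 (SE, n = 8 pools). That is a 5.95-fold difference. It depends on how values near the floor are treated: the log2 difference was 1.68 with a floor at the 25th percentile of the table and 1.86 with 16 added to every intensity. It was 2.83 without the 6 h pool and 2.29 without the 30 h pool.

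Over the 8 pools the log2 values of both probe sets had a Pearson correlation of 0.94 and a Spearman correlation of 0.83. In the first run alone the Pearson correlation was 0.82 and in the repeat alone 0.94. Across the 18 single arrays it was 0.73. For 897 pairs of probe sets that share an accession and are named in the same way, the median correlation over the pools was 0.25 and the quartiles were -0.07 and 0.58. In level the Rasl11b pair differed 21.1-fold, against a median of 3.35-fold over the pairs, and 8.36% of pairs differed more. Only 7 of the 897 pairs (0.780%) had a higher correlation than the Rasl11b pair. The paired probe sets share arrays, pools and accession, so this describes how alike they read and is no replication. A gene chosen for large differences between these pools also tends to correlate more highly with its partner than genes that vary little.

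Both runs gave the same direction and differed in the size of the difference. In the brighter probe set the fitted log2 difference between CT 6 and CT 18 was 1.97 ± 0.27 in the first run, with a peak at CT 7.16, and 1.16 ± 0.23 in the technical repeat, with a peak at CT 6.45 (SE from each run's own residuals, n = 8). Taken by day, the first run gave 2.19 for 6 h over 18 h and 1.74 for 30 h over 42 h. The repeat gave 0.77 and 1.54. The small value was that of the first day in the repeat, where the 6 h array was the lowest and the 18 h array the highest of their phases.

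Tested directly, the difference in the repeat minus that in the first run was -0.81 ± 0.42 (95% interval -1.76 to 0.14). It did not pass (limma, adjusted p = 0.999), nor did any other probe set, and 3.32% of the 4370 tested had an unadjusted p under 0.05. The interval includes 0 and also a repeat whose difference is far smaller. Without the 18 h pool the value was -0.40. Across the pools the run difference had an SD of 0.50, against a median of 0.43 for tested probe sets, and 35.6% of these had a larger one. The runs used the same RNA pools, so this is array error and not the spread between animals.

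The dimmer probe set differed less between runs in this respect, with 2.71 ± 0.48 in the first run and 2.43 ± 0.49 in the repeat. Its differences by day were 2.80 and 2.62 in the first run and 1.82 and 3.05 in the repeat. The repeat minus the first run was -0.28 ± 0.73 (limma without a level filter, adjusted p = 1). Its overall level was 0.65 higher on the log2 scale in the repeat, against -0.06 for the median tested probe set. For the brighter probe set that shift was -0.03.

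Arrays a and b give another view of array error, if they read the same pool, which was assumed. For the brighter probe set array b was higher than array a by 0.66 on the log2 scale at 24 h and by 0.80 at 36 h. These gaps exceeded the median absolute gap of tested probe sets, 0.43 and 0.52, and 30.1% and 31.5% of tested probe sets had larger ones. In the dimmer probe set the gaps were 0.02 and -0.11. Gaps of this size are as large as the steps between neighbouring phases and smaller than the fitted difference between CT 6 and CT 18 (1.56), though not than that of the first day in the repeat (0.77).

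**Figure D2:**
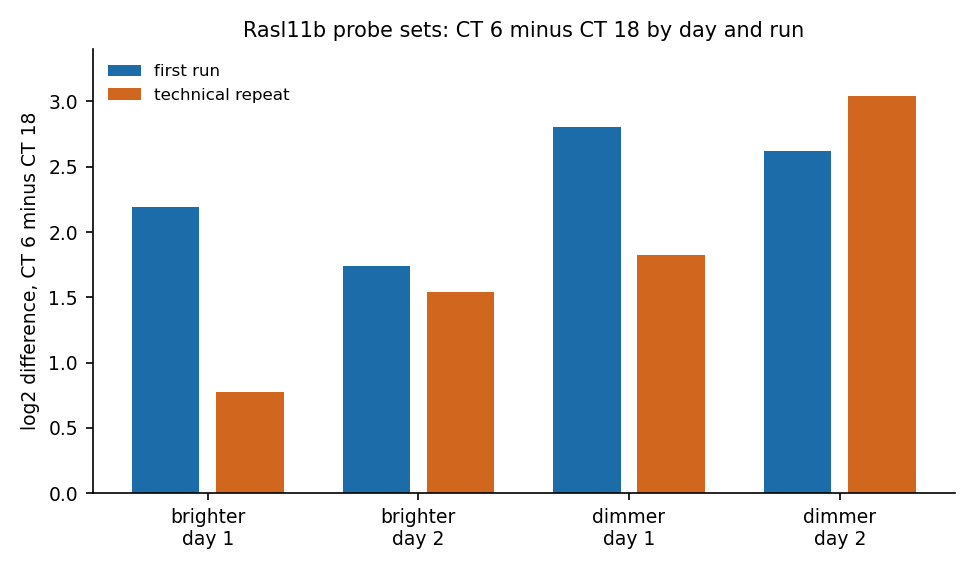
Log2 difference between the CT 6 and the CT 18 pool of the same day (vertical axis) for both Rasl11b probe sets, with a bar for each day in the first run (blue) and the technical repeat (orange) and no error bars, since each bar is 1 pair of pools. Every difference is above 0, and the lowest, 0.77, is that of the brighter probe set on the first day of the technical repeat.

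Of 18 arrays, 3 in the first run (12 h, 18 h and array b at 36 h) had summed hybridisation controls of 72377 to 120319, against 20372 to 52098 on the other 15. All arrays had been scaled alike by the authors, with a trimmed mean of 500.7 to 500.8. Median intensities were 136.5 to 152.3 in the first run and 107.9 to 127.6 in the repeat. Without those 3 arrays the Rasl11b difference was 1.34 in the brighter and 2.31 in the dimmer probe set, with the 12 h and 18 h pools then resting on the repeat alone. The part of these arrays in the difference between runs was not tested.

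The first day in darkness was compared with the second. The day difference is part of the residual of the wave that chose the gene, so a small value was favoured by that choice. For the brighter probe set the geometric mean was 946.9 over the 4 pools of day 1 and 913.9 over the 4 of day 2. By phase the second day minus the first was -0.07 at CT 0, 0.06 at CT 6, -0.10 at CT 12 and -0.09 at CT 18 on the log2 scale. The fitted difference was -0.05 ± 0.14 (95% interval -0.36 to 0.26, limma, adjusted p = 0.997) and did not pass. In the same test 0% of the 4370 probe sets passed and 3.96% had an unadjusted p under 0.05.

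For the dimmer probe set the second day read 49.4 and the first 39.4, a log2 difference of 0.33 ± 0.15 (95% interval -0.04 to 0.70, limma without a level filter, adjusted p = 0.963). Most of that gap lay at CT 6, where the second day was 0.68 higher, and at CT 12, where it was 0.51 higher. It did not pass.

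Departure from a simple 24 h wave was tested with a 12 h component, which the choice of the gene by a close fit also keeps small, the mean of CT 0 and CT 12 minus that of CT 6 and CT 18. In the brighter probe set these means were 994.8 and 869.8, a log2 difference of 0.19 ± 0.12 (95% interval -0.07 to 0.46, limma, adjusted p = 0.794). In the dimmer it was -0.04 ± 0.20 (adjusted p = 0.987). Neither passed. Of all probe sets tested 0% passed and 7.30% had an unadjusted p under 0.05. The cosine and sine alone accounted for 96.7% of the variance of the brighter probe set's pool means, a share fixed in part by that choice, and 94.6% of the dimmer's.

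Dusk and dawn were not clearly ordered in Rasl11b. In the brighter probe set CT 12 exceeded CT 0 by 0.39 on the first day and 0.36 on the second, but the first-day value was 0.88 in the first run and -0.11 in the repeat. In the dimmer probe set the same differences were -0.07 and 0.49. The order of CT 12 and CT 0 is therefore not settled by these arrays.

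The tissue labelled SCN was compared with SCN genes. Avp, the vasopressin gene of the dorsal SCN, read 1226 to 2204 over the pools and Sst, somatostatin, 4492 to 7656. Vip, the peptide gene of the ventral SCN, read 30.8 to 78.6, under the level filter, and the SCN transcription factor genes Lhx1 and Rorb were near the floor at 14.9 and 17.5. Of 14 such genes listed, 7 had a probe set with a single symbol and 2 passed the level filter.

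Markers of other tissue that a dissection could hold were set beside the Rasl11b phases. The choroid plexus and ependymal list was higher at CT 6 in 7 of its 10 measured genes, with a median log2 difference of 0.09. Its summed intensity was 7763 at 6 h and 8251 at 30 h, against 6515 at 18 h and 7236 at 42 h. Without Ttr, the transthyretin gene and main choroid plexus marker, the sums were 7455, 7946, 6463 and 7130. Most of each sum came from Igf2 (3776, 3913, 3575 and 3720) and Enpp2 (2823, 3229, 2038 and 2485, same order of pools). The sums therefore follow these genes, and leaving out the dimmer Ttr could change them little. Ttr itself read 308 and 305 at CT 6 and 52.3 and 106 at CT 18. Kcnj13, another choroid plexus marker, was near the floor. The part of such tissue in the Rasl11b course was not tested.

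The other marker lists were mixed, and their sums too weigh the brightest genes most. The SCN list was higher at CT 6 in 2 of 7 genes, with sums of 8215 and 6976 at CT 6 against 8117 and 6883 at CT 18. The astrocyte list was higher at CT 6 in 6 of 8 genes, with a median of 0.14, and its summed intensity was 43637 and 44615 at CT 6 against 43078 and 37959 at CT 18. Fabp7, which binds fatty acids in astrocytes, was 0.65 higher (adjusted p = 0.968 by limma), and Gja1, the astrocyte gap junction gene, was near the floor. The list of neighbouring hypothalamic neurons was higher in 2 of 11, with sums of 10521 and 8316 against 11354 and 9763. The myelin list was higher in 4 of 7, with sums of 33685 and 38518 against 35368 and 34784. In all 5 lists 0 genes passed after adjustment by limma, and at an unadjusted p under 0.05 there was 1 of 7 tested in the choroid plexus list, 2 of 10 in the neighbouring neuron list and 1 of 7 in the astrocyte list, beside 1.70% of all genes higher and 2.02% lower at CT 6. The part of these cells in the Rasl11b course was not tested either.

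Against clock genes, Rasl11b peaked earlier than Dbp, a clock output transcription factor whose fitted peak lay at CT 11.7 with an amplitude of 0.64. Dbp pools read 828 and 899 at CT 6 and 841 and 779 at CT 18, so the contrast that separates Rasl11b was 0.09 ± 0.17 in Dbp. By run it was -0.39 in the first and 0.57 in the repeat. Bmal1, the positive arm of the clock, had its fitted peak at CT 23.3 and a difference of -0.18 ± 0.28. For Nr1d1, the Rev-erb alpha repressor, it was -0.23 ± 0.36, and for Per2, a negative arm gene, 0.09 ± 0.33. The amplitude was 0.48 in Bmal1 and 0.38 in Nr1d1, but only 0.06 in Per2, which was nearly flat here. By day the Nr1d1 difference was 0.51 on the first and -0.97 on the second. None of the fitted differences in these clock genes passed, and the difference in phase between genes was not tested.

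The stretch before the Rasl11b start site is shown because clock output genes are often driven from E-boxes, D-boxes or cAMP response elements near their start. It comes from RefSeq on assembly GRCr8, chr14:34373251-34373500, minus strand, 250 bases that end where transcription starts. Capitals mark CACGTT, a variant of the E-box.

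Rasl11b promoter: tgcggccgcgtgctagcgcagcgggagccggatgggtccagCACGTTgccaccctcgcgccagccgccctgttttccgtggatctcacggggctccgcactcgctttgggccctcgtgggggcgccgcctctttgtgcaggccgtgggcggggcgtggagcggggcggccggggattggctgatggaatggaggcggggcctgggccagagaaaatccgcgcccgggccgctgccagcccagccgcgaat

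This window holds 73.2% G and C, against a median of 52% over 27457 RefSeq promoters, and 95% of them have a lower share. On both strands it holds 0 matches to the canonical E-box CACGTG (present in 5.73% of promoters), 0 to the D-box TTANGTAA (2%), 0 to the Rev-erb element TAGGTCA (2.27%), 0 to the full cAMP response element TGACGTCA (1.68%) and 0 to its CGTCA core (18.8%, which includes the full element). CACGTT occurs once, starting 209 bases before the start, and 4.18% of promoters hold it. That variant was added to the search with the sequence in view. The GC box GGGCGG occurs 3 times, at 187, 105 and 88 bases before the start (32.1% of promoters), and the CCAAT box once, on the reverse strand at 76 bases (34.2%). These are letter matches only, and no binding was measured.

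No tested member of the Ras superfamily, Rasl11b included, passed for the 24 h rhythm. None besides Rasl11b, which was chosen by it, passed for CT 6 minus CT 18. Of 139 genes listed by name, 56 had a probe set with a single symbol and 37 were tested. Of these 37, 0 passed for a 24 h rhythm and 0 for CT 6 minus CT 18 by limma with Benjamini-Hochberg adjustment (smallest adjusted p = 0.746 and 0.968). At an unadjusted p under 0.05 the counts were also 0 and 0, while 5.46% of all tested genes reached it for the rhythm, and 1.70% and 2.02% were higher and lower at CT 6. These counts use the brightest probe set of a gene, and over all 51 tested probe sets of these genes the unadjusted counts were 1 and 1. The log2 difference was above 0 in 20 of the 37 and below 0 in 17, with a median of 0.03 and a range of -0.39 to 0.55. Over all 2820 genes the median was -0.01. Of the 37 genes, 17 had the same sign of the difference in both runs, 18 on both days and 10 in both runs and both days. Their amplitudes had a median of 0.13 and a maximum of 0.48, against a median of 0.15 over all genes and 0.80 in Rasl11b.

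**Figure D3:**
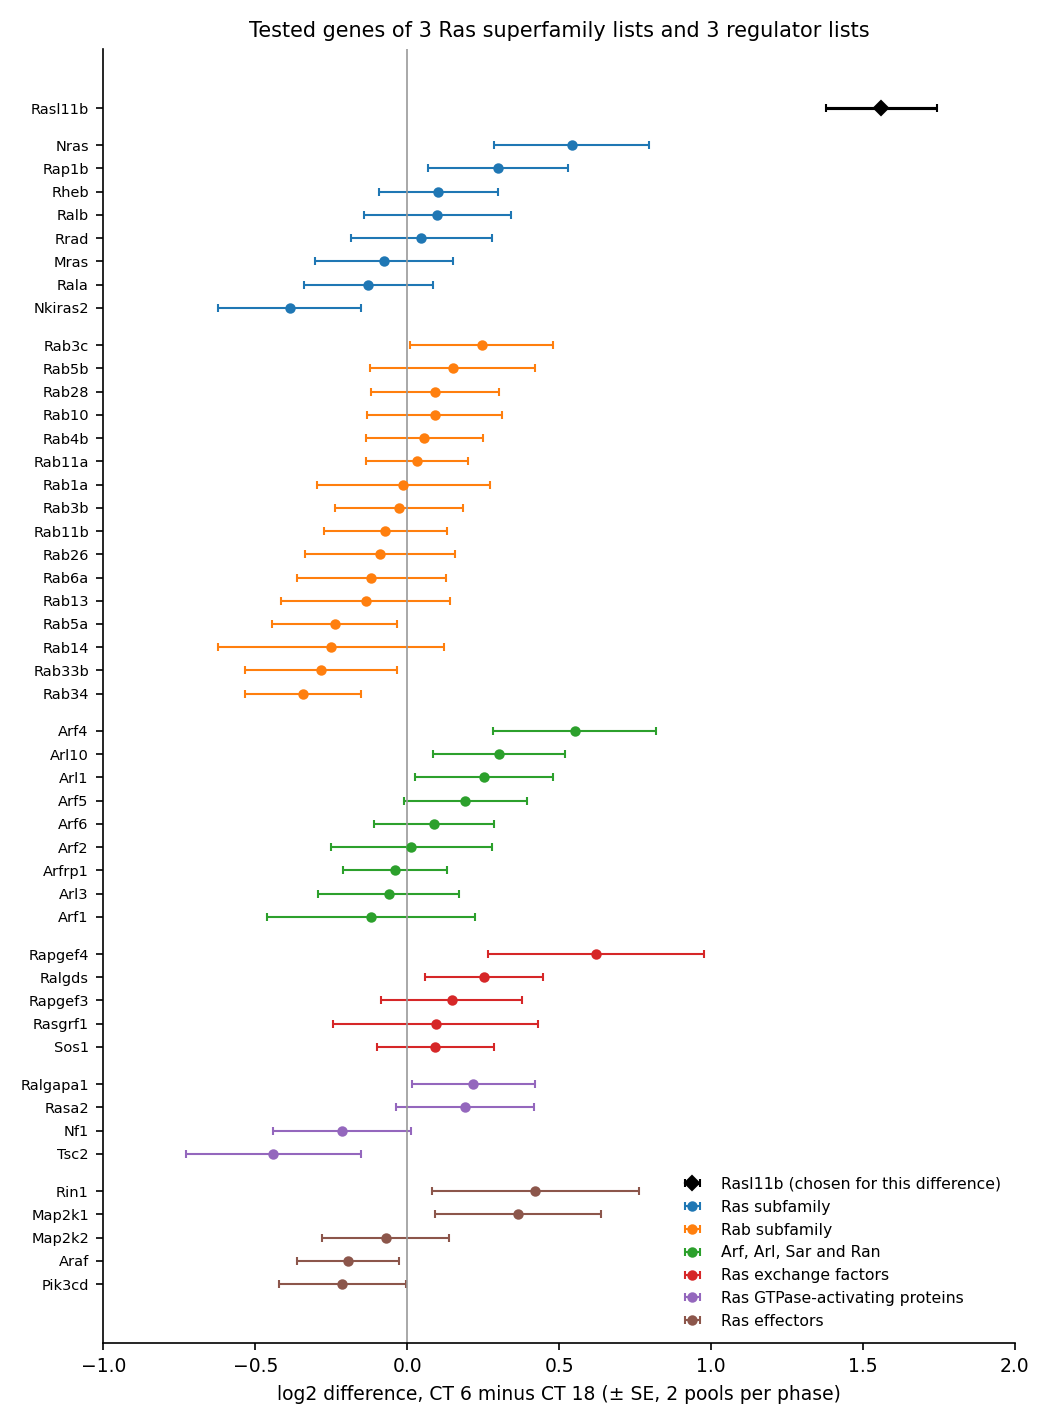
Log2 difference between CT 6 and CT 18 (points, with SE bars) for the brighter Rasl11b probe set (black) and the tested genes of 3 Ras superfamily lists and 3 regulator lists, coloured by list. Rasl11b, chosen for this difference, stands at 1.56, and the superfamily genes shown lie between -0.39 and 0.55.

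Rasl11a, the closest relative, had a mean of 39.5 and was below the level filter. Its pools read 27.6, 33.7, 53.9 and 33.6 from 0 to 18 h and 27.2, 56.3, 30.3 and 75.9 from 24 to 42 h. The levels of CT 6 and CT 18 overlapped, and the fitted difference was -0.21 ± 0.53, with 0.15 in the first run and -0.58 in the repeat. Its error was wider than that of the dimmer Rasl11b probe set, 0.26 at a mean of 44.1. The choice of Rasl11b by its fitted rhythm favours a small error there, so nothing is concluded from this gap.

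Within the Ras subfamily 8 genes were tested, of which 5 had a positive and 3 a negative difference, with a median of 0.07. Nras, a classical Ras that signals to the Raf kinases, had the highest value, 0.54 ± 0.25 (adjusted p = 0.968, limma), with 0.62 in the first run and 0.46 in the repeat. Its pools read 278 and 360 at CT 6 and 194 and 244 at CT 18, and its fitted peak lay at CT 6.28. A second Nras probe set gave -0.59 ± 0.43, so the direction for this gene is not settled.

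Rap1b, a Ras relative in cell adhesion and synaptic signalling, gave 0.30 ± 0.23, with pools of 4348 and 3869 at CT 6 and 2617 and 4246 at CT 18. A second Rap1b probe set gave -0.06 ± 0.22. Rheb, which activates the growth kinase complex mTORC1, gave 0.10 ± 0.20. The Ral GTPases, which act on the exocyst, gave 0.10 ± 0.24 for Ralb and -0.13 ± 0.21 for Rala. A second Ralb probe set gave -0.38 ± 0.18. Rrad, an inhibitor of calcium channels, gave 0.05 ± 0.23 and Mras -0.08 ± 0.23. Nkiras2, a Ras-like inhibitor of NF-kappa-B, had the lowest value, -0.39 ± 0.23, with 289 and 232 at CT 6 and 312 and 367 at CT 18. None passed.

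Of the list of Arf, Arl, Sar and Ran genes, which act in vesicle and nuclear transport, 9 were tested. The Sar genes and Ran had no probe set with a single symbol, so none of the 9 is a Sar gene or Ran. Arf4 gave 0.55 ± 0.27, but with 1.13 in the first run and -0.03 in the repeat. Arf1 had the highest amplitude among the 37 tested superfamily genes, 0.48 ± 0.17 with a fitted peak at CT 23.5 (adjusted p = 0.746, limma). Its 42 h pool read 813 and its 18 h pool 371, so the same phase differed between days. Arl10 gave 0.30 ± 0.22, Arl1 0.25 ± 0.23 and Arl3 -0.06 ± 0.23. The other 2 Arl1 probe sets gave -0.16 ± 0.20 and -0.28 ± 0.31, the opposite sign.

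The Rab genes, which steer vesicle traffic, had 16 tested members, with 6 positive and 10 negative differences and a median of -0.05. Rab34 gave -0.34 ± 0.19, Rab33b -0.28 ± 0.25, Rab5a -0.24 ± 0.21 and Rab1a -0.01 ± 0.28. A further 19 superfamily genes, most of them Rabs, were under the level filter. The steepest of these were Rab15 at -1.38 ± 0.43 and Rab29 at -1.36 ± 0.37, opposite to Rasl11b in sign, with mean intensities of 26.6 and 26.3.

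Regulators and effectors of Ras GTPases did not pass either, with 14 of 58 listed genes tested, each by its brightest probe set, and 0 past the threshold for the rhythm or the difference by limma. At an unadjusted p under 0.05 there were also 0, beside 5.46% of all genes for the rhythm and 1.70% and 2.02% higher and lower at CT 6. Of the 14 genes, 8 had the same sign of the difference in both runs and 6 in both runs and both days. In the mean of the runs all 5 exchange factors had a positive difference, with a median of 0.15. The highest was Rapgef4, a cAMP-activated exchange factor for Rap, at 0.62 ± 0.36, but with 1.33 in the first run and -0.09 in the repeat. Ralgds, an exchange factor for Ral, gave 0.25 ± 0.19, with 0.41 in the first run and 0.09 in the repeat. Rapgef3 gave 0.15 ± 0.23, with 0.53 in the first run and -0.24 in the repeat. In the repeat alone, only Ralgds of the tested exchange factors stayed above 0.

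The 4 GTPase-activating proteins were split evenly. Tsc2, which turns Rheb off, gave -0.44 ± 0.29 and Ralgapa1 0.22 ± 0.20. Nf1, the neurofibromin that turns Ras off, gave -0.21 ± 0.23 on its brightest probe set. Other Nf1 probe sets gave 0.60 ± 0.21 (unadjusted p = 0.0194, limma with the level filter), 0.29 ± 0.18 and -0.08 ± 0.21, so its direction is not settled. The 5 effectors had a median of -0.07. Rin1 gave 0.42 ± 0.34, but with -0.28 in the first run and 1.13 in the repeat. Map2k1, the MAP kinase kinase MEK1, gave 0.37 ± 0.27, Pik3cd -0.21 ± 0.21 and the Raf kinase Araf -0.19 ± 0.17.

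The genes whose 8 pool means ran most like the brighter Rasl11b probe set were found by Pearson correlation over 3587 other tested probe sets with 1 symbol. The median correlation was -0.04. Such a correlation rests on 8 pools that all genes share, and the 8 highest of so many are high by selection. The dimmer Rasl11b probe set, with 0.94, was exceeded by 1 of them.

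That probe set was Itga1, the integrin alpha 1 gene, at 0.94, but its correlation was 0.90 in the first run and 0.35 in the repeat, and its difference between CT 6 and CT 18 was only 0.36 ± 0.16. Next came Slc25a5, a mitochondrial ADP/ATP carrier, at 0.88, and Vps33a, a factor of endosome and lysosome fusion, at 0.86. They were followed by Marcks, a protein kinase C substrate, at 0.85 with a later fitted peak of CT 8.57. Prps1, of nucleotide synthesis, also had 0.85.

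The remaining genes were Pam, which amidates neuropeptides, at 0.84, Tnrc6b, of microRNA silencing, at 0.84, and Ttr at 0.84. Only Vps33a, with 1.03 ± 0.24, and Ttr, with 2.04 ± 0.37, had a difference between CT 6 and CT 18 above 1. Where a gene had other probe sets, the brightest of them followed Rasl11b less closely, with 0.44 for Vps33a, 0.25 for Marcks, 0.29 for Pam and 0.21 for Ttr. The matching Vps33a and Marcks probe sets were dim, with pools of 95.1 to 264 and 90.6 to 180. Their brightest others had means of 2821 and 2597. For Pam and Ttr the brightest others, with means of 2229 and 112, were dimmer than the matching ones.

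The most opposite courses were those of Psat1, an enzyme of serine synthesis, at -0.93, Mapt, the tau gene, at -0.90, Trim8, a ubiquitin ligase, at -0.89 and Cptp, a lipid transfer protein, at -0.89. Psat1 read 5199 and 5872 at CT 6 and 9428 and 10141 at CT 18. Its brightest other probe set had a correlation of -0.28, and that of Mapt 0.28. No Ras superfamily gene was among these 12. With 51 tested superfamily probe sets beside 3587 searched, few or none would be met in any 12, so this says nothing about the family.

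**Figure D4:**
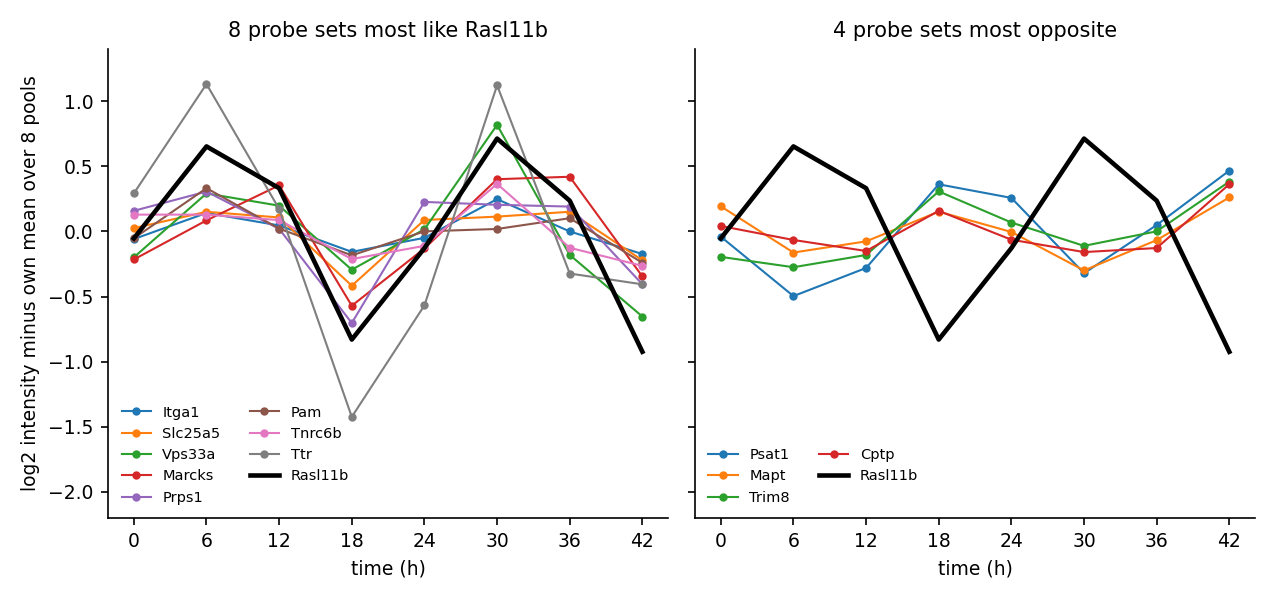
Log2 pool means, each centred on its own mean, for the brighter Rasl11b probe set with the genes most like it and most opposite to it over the 8 pools, against hours from the first projected lights-on. Itga1 (0.94) follows its shape over a small range, and Psat1 (-0.93) is highest at 18 h and 42 h.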

How the data were processed

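RNA from the SCN was read on 18 arrays. The authors' deposited intensities were used as they stand. Per array they had already been scaled; how probes were summarised is not given in the sources used here. Values under the table's 10th percentile (12.1) were set to that floor and log2 was taken. Arrays a and b, assumed to read 1 pool, were averaged, then both runs. Of 8799 probe sets, 59 controls were left out, and 4370 with a mean above the median (121) were tested. Of the symbols, 7006 were single, and 6985 of these matched a RefSeq gene number.

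The 8 pools were fitted with limma 3.58.1 in R 4.3.3 (cosine and sine of 24 h, 5 residual and 5.13 prior degrees of freedom, Benjamini-Hochberg adjustment, threshold 0.05). The day and the 12 h component were added as terms, and the difference between runs was fitted to each pool's run difference. P-values measure the spread of the pool means around the fit, with 1 pool per time point. That spread holds array error as well as differences between pools, and the correlation between values of a pool was only 0.03. The number of arrays limits the precision. For further probe sets of a Ras superfamily or regulator gene, and for such genes under the level filter, the SE comes from the fit without that filter. It can differ somewhat from the SE of the filtered fit. The fits were tested on simulated data.

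Rasl11b and all gene lists were chosen with earlier results of these data known. Named are all Ras subfamily genes, the 3 genes with the smallest p for each test in the other lists, the 8 probe sets most like and the 4 least like Rasl11b, 4 clock genes and marker genes. Members of 1 superfamily list enter the counts but are not reported here singly. Rab15 and Rab29 were named after their values were seen. Alternatives covered scaling, floor, filter, runs, arrays and pools.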

Additional observations from a re-analysis of the deposited data

How the results depend on the processing

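The Rasl11b difference between CT 6 and CT 18 stayed above 0 in all 17 alternatives for each probe set, a direction that the choice of the gene favours. The brighter probe set gave 1.97 from the first run alone, 1.16 from the technical repeat alone and 1.34 without the 3 arrays with high hybridisation controls, and 1.45 to 1.66 with 1 pool left out. The dimmer gave 1.68 with the floor at the 25th percentile, 1.86 with a pseudocount of 16, and 2.29 to 2.83 with 1 pool left out. Fitted peaks ranged from CT 6.38 to 7.16 and from CT 6.03 to 6.69. The day difference of the brighter probe set turned to 0.038 in the first run alone and to 0.041 without arrays a, and ran from -0.13 to 0.0085 with 1 pool left out, above 0 without the 0 h, 12 h or 42 h pool. The 12 h component turned to -0.037 without the high hybridisation arrays. The difference between runs ran from -1.13 to -0.40 with 1 pool left out. None of these 3 tests passed in any alternative, with adjusted p of 0.808 to 0.999, 0.617 to 1.00 and 0.667 to 1.00 by limma. The cause of these shifts was not tested. With the run as a replicate block and the pool as a random block (correlation within a pool 0.03), the day difference was -0.05 ± 0.16 and the 12 h component 0.19 ± 0.14, and no call changed. Ras superfamily genes past the adjusted threshold numbered 0 in all 23 alternatives for both tests, and 0 to 3 at an unadjusted p under 0.05. The count of 3 was met for the rhythm without the level filter, among 56 genes. It was also met for CT 6 minus CT 18 without the 30 h pool, among 37 genes. The share over all genes is given for the main setting only, so these counts are not set against one. The 8 pools and 18 arrays limit the precision, and values near the floor depend on where it is set.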
